A study of Mus musculus with 40 samples.

Results

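The cytosolic ribosomal protein genes are described here in the cortex of female mice of the 3xTg-AD model of Alzheimer's disease after 1 to 5 closed-head injuries (CHI). They were taken by name from the mouse genes of the count table: Rpl or Rps followed by a number, with the acidic stalk genes Rplp0, Rplp1 and Rplp2 and the gene Rpsa, and without the Rps6k kinases. A gene also had to hold 10 or more counts in at least 35 of 39 samples, the same rule that left 15224 of the 55539 listed features for testing. Of 89 genes with such a name 83 passed, namely 43 of the large subunit, 3 of the acidic stalk, 31 of the small subunit and 6 copies or paralogs (Rpl22l1, Rpl7l1, Rps27l, Rpl6l, Rps4l and Rps3a2). All 83 held 10 or more counts in 39 of 39 samples. The members with the fewest counts inside the rule were Rpl6l (92 to 413 counts, median 151), Rps4l (97 to 360, median 172), Rps27l (103 to 320, median 158) and Rps3a2 (173 to 552, median 266). Just outside it were Rps3a3, with 10 or more counts in 24 samples (median 11), and Rpl3l, with 10 or more in 4 (median 5). Rps12l1 reached 10 counts in 1 sample, and Rpl32l, Rpl10l and Rpl39l in 0.

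Each ribosome is built from RNA and one copy of most ribosomal proteins, so the cell has to make these proteins in matched amounts. Their mRNAs are abundant and short, and many begin with a terminal oligopyrimidine (TOP) tract, a run of C and T letters at the start of the mRNA through which the kinase complex mTORC1 controls their translation. In neurons some of these mRNAs also travel to axons and dendrites, where ribosomes serve local protein synthesis.

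Gene expression was measured by bulk RNA sequencing of the left somatomotor cortex in 40 samples, of which sample 30 (3xCHI, 4 h) was left out. The study left out 1 sequenced animal as an outlier in its protein data. Its listed group sizes place that animal in this group, without giving the sample number. All mice were 3xTg-AD females on a C57BL/6J background aged 2 to 4 months, which carry human APP and MAPT transgenes with disease mutations driven by a Thy1 promoter active mainly in neurons. An injury was a weight dropped on the intact skull under isoflurane, once a day, which sets the head rotating and is diffuse rather than focal. Mice given 1, 3 or 5 injuries (1xCHI, 3xCHI, 5xCHI) were sampled 30 min, 4 h or 24 h after the last one, mice given 2 or 4 (2xCHI, 4xCHI) only at 24 h, and sham-injured mice had the anesthesia without the injury. The groups held 4 sham, 10 1xCHI, 3 2xCHI, 9 3xCHI, 3 4xCHI and 10 5xCHI samples. Every group carried the transgenes, so no wild-type mouse and no male stands beside these values, and 1 sham group serves every injury number. The summed counts ran from 15926014 to 27859547 per sample, with a median of 19028778. All 34 neuron, astrocyte, microglia, oligodendrocyte and endothelial markers examined were measured and tested, and none was at 0 in any group. In bulk tissue fewer cells of a type and less RNA per cell cannot be told apart, and p-values measure the spread between the samples of a group.

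The titles also number the samples, and the numbering runs partly with the groups. Numbers 1 to 18 come in blocks of 5 3xCHI, 1 sham, 6 5xCHI and 6 1xCHI samples. Numbers 19 to 40 hold the other 3 sham samples, 4 of each of 1xCHI, 3xCHI and 5xCHI, and all 2xCHI and 4xCHI samples. The labels do not say what the numbers stand for. In the main edgeR fits over all 39 samples, members passed the adjusted test with these numbers and in no comparison of injury groups. Values within the ranges are therefore given beside the main results. Single samples also stood apart in these genes, namely sham sample 20, low in the shortest members, 5xCHI sample 11, the highest of all in their share of counts, and 1xCHI sample 36, the lowest.

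Start sequences were read to show the tract that these genes are known for. The RefSeq table of promoters (GRCm38.p6) held 60 of the 83 members. A tract was counted as a run of 7 or more letters, each C or T, that begins with C within 20 bases of an annotated start, read on the gene's own strand. It was present in 35 of 60 member genes (58.3%), against 24.0% of the 27025 genes in the table. By start, 37 of 71 member starts (52.1%) held it against 21.2% of 32851, and on the other strand 11.3% of member starts did against 24.3%. The lines below give 30 bases around 1 annotated start of genes whose values follow, from 10 bases before it to 20 from it on, with the tract in capitals. Rpl13a and Rpl14 are named in the study, Rpl38, Rpl35a and Rpl22l1 were among the 5 with the smallest p after 1xCHI, and Rps9 among the 5 for sample number. Of the 3 annotated starts of Rpl35a only the one shown held a tract. The last pair are shown as genes without a tract by this rule.
Rpl13a, chr7:45128726-45128755, minus strand: cctgcgacaagaCCTCCTCCTTTCCCaggc
Rpl14, chr9:120571507-120571536, plus strand: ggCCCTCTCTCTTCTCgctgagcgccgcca
Rpl38, chr11:114668570-114668599, plus strand: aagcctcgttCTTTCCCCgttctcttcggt
Rpl35a, chr16:33056472-33056501, plus strand: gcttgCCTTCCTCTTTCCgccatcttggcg
Rps9, chr7:3704031-3704060, plus strand: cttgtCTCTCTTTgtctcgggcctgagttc
Rpl22l1, chr3:28805498-28805527, plus strand: gcgcaagcccgttCTCTTCCCacggctgca
Rplp0, chr5:115559457-115559486, plus strand: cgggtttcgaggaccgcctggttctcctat
Rpl7l1, chr17:46782637-46782666, minus strand: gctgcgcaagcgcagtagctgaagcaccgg
A match is a description of these letters and not a mapped mRNA start, and no letters were compared with the counts.

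The 83 genes took a small and variable part of each library. Their summed share of counts was 0.983%, 1.04%, 0.888% and 0.949% in sham samples 6, 20, 35 and 39. After 1xCHI it ran from 0.838% to 1.5% with a median of 1.33%, in 2xCHI it was 0.958%, 1.25% and 1.16%, and in 4xCHI 0.982%, 1.22% and 1.07%. The lowest, median and highest shares were 0.889%, 1.11% and 1.26% in 3xCHI and 0.910%, 1.11% and 1.73% in 5xCHI. The sham range overlapped that of every injured group. Within 1xCHI the values fell into separate ranges by sample number, with 1.28% to 1.5% in the 6 samples numbered 13 to 18 and 0.838% to 1.09% in the 4 numbered 26 to 36. The 6 lay above every sham sample, and the 4 spanned the sham range.

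**Figure D1:**
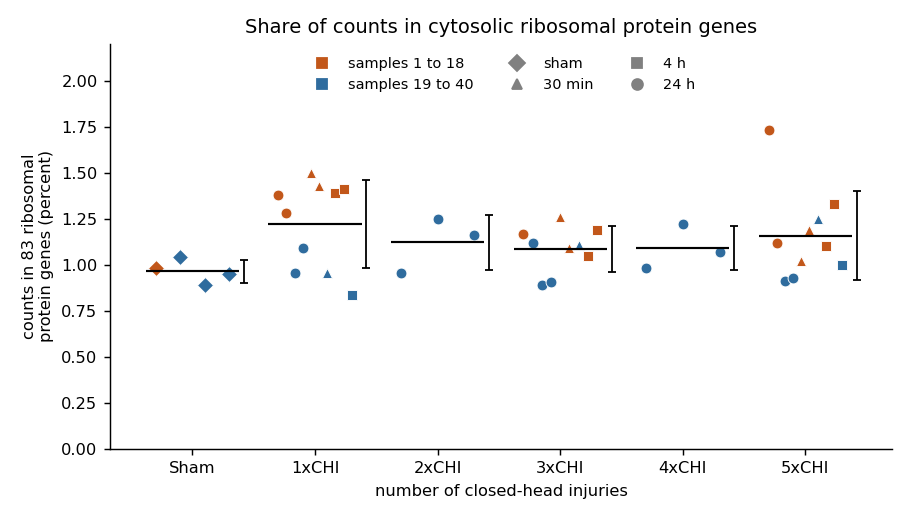
Percent of each library's counts in the 83 ribosomal protein genes (vertical axis) for 39 samples grouped by number of closed-head injuries (horizontal axis); each point is 1 sample, its color gives the sample number range and its shape the time point. The 6 1xCHI samples of the lower numbers sit at 1.28% to 1.5%, the other 4 at 0.838% to 1.09%, and sham at 0.888% to 1.04%, while 5xCHI sample 11 reaches 1.73%.

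Levels differed widely among members when counted per length. As counts per 1000000 counts (CPM) per kilobase of coding sequence, Rpl41, which makes one of the smallest known proteins, was highest at 2450, followed by the stalk gene Rplp1 at 1150 and by the small subunit genes Rps29 at 689, Rps14 at 652 and Rps15 at 592. The lowest of the members with a coding length were Rps27l at 33.1, Rpl7l1 at 54.3, Rpl12 at 87.8, Rpl5 at 91.0 and Rpl10a at 102. These are means over 39 samples, and UTRs and the lengths of the fragments are not in the scale. Of all member values 83.6% were not whole numbers, against 4.46% of values over all features, since the deposited values are estimated counts. Between 1.05% and 94.1% (median 25.3%) of a member's stretches of 31 bases also stood in another gene, most of all in Rpl36 (94.1%), Rps3a2 (92.9%), Rpl6l (84.4%), Rps3a1 (76.9%) and Rplp1 (75.1%), so that single genes are less certain than the group.

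Within the groups the members varied together. Over 3403 pairs of members the correlation of log2 deviations from the group means, across 39 samples, had a median r of 0.878 and was above 0 in 99.7% of pairs, and between large and small subunit genes the median was 0.899. These points share libraries, depth and scaling. The genes least like the median of the others were Rpl10 (r = 0.297), which is added late in large subunit maturation, Rpl7l1 (0.494), Rps3a2 (0.521), Rpl12 (0.57), at the base of the stalk, and Rpl5 (0.574), which joins the ribosome with the 5S RNA. The spread within groups, as an SD on the log2 scale, was largest in Rps4l (0.43), Rps3a2 (0.42) and Rpl36 (0.38).

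The comparison of 1xCHI with sham asks what a first injury did, over its 3 time points together. All 83 members were higher after 1xCHI by point estimate, with a median log2 fold change of 0.37 (range 0.04 to 0.75) where the median over all 15224 features was 0.01. None passed the test after adjustment (edgeR, smallest adjusted p 0.221), whereas 67 of 83 were higher at an unadjusted p under 0.05, a count set against 10.9% of all features. DESeq2 called 0 as well, with 68 at an unadjusted p under 0.05. In this comparison edgeR called 0 features in all, with 2625 at an unadjusted p under 0.05, and DESeq2 called 24. The count of 67 rested in part on single samples, as it was 39 without sham sample 35. It also changed with the samples and the processing, as it was 0 (median 0.01) among samples 19 to 40 alone, 15 (median 0.10) with a trend in length and GC content removed from each library and 16 (median 0.07) with 1 surrogate variable fitted, an unknown factor estimated from the counts. Comparisons below that share the 4 sham samples, or the 1xCHI, 2xCHI or 4xCHI samples, are not independent, and their values are given side by side.

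Among large subunit genes 35 of 43 were higher at an unadjusted p under 0.05 after 1xCHI, with a median log2 fold change of 0.36. Rpl38, a surface protein known for its part in translating homeobox mRNAs in the embryo, had 61.4, 45.1, 60.9 and 70.5 CPM in the sham samples and a lowest, median and highest value of 57.3, 97.0 and 139 CPM after 1xCHI. The ranges overlapped at the low end of 1xCHI. The log2 fold change was 0.67 ± 0.18 (SE; edgeR, adjusted p = 0.221), and 0.54 without sham sample 20, its lowest value. Rpl39, a short protein that lines the exit tunnel, went from 39.1, 27.5, 41.5 and 44.4 CPM in sham to 38.7, 61.5 and 84.6 CPM (lowest, median, highest), a log2 fold change of 0.64 ± 0.18 (adjusted p = 0.221). Without sham sample 20, its lowest value, the log2 fold change was 0.50. Rpl35a, a gene mutated in Diamond-Blackfan anemia, had 91.9, 84.1, 82.1 and 94.4 CPM in sham and 84.1, 139 and 177 CPM after 1xCHI. Its groups overlapped as well, with a log2 fold change of 0.57 ± 0.16 (adjusted p = 0.221).

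A pair of large subunit genes that the study names lay near the middle of the group. Rpl13a, known also as a translational repressor in the interferon response, had 240, 269, 225 and 232 CPM in sham and 206, 351 and 487 CPM (lowest, median, highest) after 1xCHI, with a log2 fold change of 0.45 ± 0.17 (edgeR, adjusted p = 0.240). Rpl14 had 118, 145, 100 and 113 CPM in sham and 95.9, 165 and 214 CPM after 1xCHI, with a log2 fold change of 0.42 ± 0.17 (edgeR, adjusted p = 0.249). In both genes the 1xCHI range held the whole sham range. Other large subunit genes were close to 0: Rpl10 at 0.06 ± 0.19, Rpl3, which shapes the site of peptide bond formation, at 0.13, Rpl22 at 0.13 ± 0.08 and Rpl5 at 0.15 ± 0.10 on the log2 scale. None of these 4 had an unadjusted p under 0.05.

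The acidic stalk recruits the elongation factors. Rplp1 had 328, 322, 322 and 340 CPM in sham and 303, 468 and 614 CPM (lowest, median, highest) after 1xCHI, a log2 fold change of 0.43 ± 0.15. Its partner Rplp2 differed by 0.51 ± 0.17, and Rplp0, which anchors both to the ribosome, by 0.12 ± 0.13 on the same scale. The first pair had an unadjusted p under 0.05 (edgeR, adjusted p = 0.222 for both) and Rplp0 did not (adjusted p = 0.603). The difference between stalk genes was not tested.

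Of the small subunit genes 25 of 31 were higher at an unadjusted p under 0.05 after 1xCHI, with a median log2 fold change of 0.39. Rps29, a small zinc-binding protein, had the smallest p of all members (edgeR, adjusted p = 0.221). It had 96.1, 52.2, 96.3 and 103 CPM in sham and 92.8, 146 and 189 CPM (lowest, median, highest) after 1xCHI, and the log2 fold change of 0.66 ± 0.17 was 0.47 without sham sample 20, its lowest value. Rps28, near the exit of the mRNA channel, was low in the same sham sample, with 52.2, 32.1, 50.6 and 60 CPM, and differed by 0.65 ± 0.19. Rps6, the protein that S6 kinases phosphorylate when mTORC1 is active, differed by 0.24 ± 0.12 and did not have an unadjusted p under 0.05.

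The copies and paralogs went with the main genes, as 5 of 6 were higher at an unadjusted p under 0.05. Rpl22l1, a paralog that can take the place of Rpl22, had 42, 44.8, 49.7 and 44.2 CPM in sham and 47.1, 60 and 69.8 CPM (lowest, median, highest) after 1xCHI. Of the 10 1xCHI samples 3 reached into the sham range, and the log2 fold change was 0.38 ± 0.11 (edgeR, adjusted p = 0.221). Rpl7l1, a protein of ribosome assembly, differed by 0.04 ± 0.07, the smallest value of all members. Rpl6l at 0.75 ± 0.25 and Rps4l at 0.68 ± 0.27 are annotated as processed pseudogenes, and 72.2% of the stretches of 31 bases in Rpl6l, 84.8% in Rps3a2 and 0.876% in Rps4l also occur in the parent gene, so reads of Rpl6l and Rps3a2 from those stretches cannot be told apart from those of Rpl6 and Rps3a1. Rpl22l1, Rpl7l1 and Rps27l shared none.

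The ratio of a paralog to its parent within a sample does not depend on library scaling. For Rpl22l1 to Rpl22 the mean log2 ratio was -0.62 ± 0.15 (SD, n = 10) after 1xCHI and -0.86 ± 0.12 (SD, n = 4) in sham, a difference of 0.24 (exact two-sided permutation test, p = 0.0170, adjusted over 15 tests p = 0.255). After 5xCHI the ratio was -0.90 ± 0.15 (n = 10), 0.04 below sham (exact permutation test, p = 0.643). Within 1xCHI the ratio was -0.69 to -0.40 in the 6 samples of the lower numbers and -0.87 to -0.70 in the other 4, and in sham -0.91 in sample 6 and -0.93 to -0.68 in the other 3. The other pairs differed from sham by at most 0.24, and none of the 15 tests passed after adjustment. With 3 against 4 samples the smallest p this test can give is 0.0286, so the 2xCHI and 4xCHI groups on their own could not pass after adjustment over 15 tests.

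**Figure D2:**
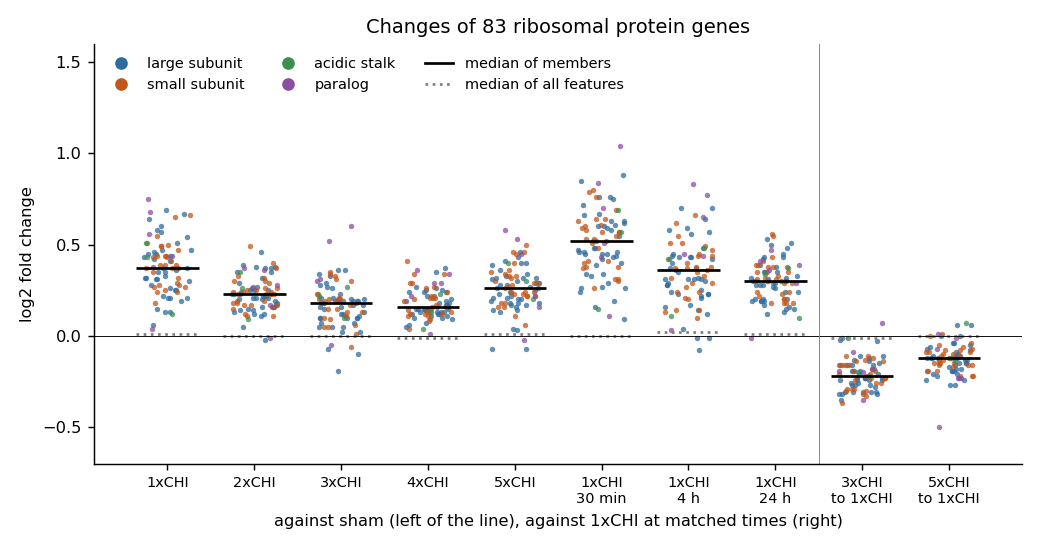
Log2 fold changes (vertical axis) of the 83 genes in each comparison (horizontal axis), 1 point per gene colored by its place in the ribosome, with the median of the members and of all features as lines. The members' median is 0.37 after 1xCHI, 0.23, 0.18, 0.16 and 0.26 after 2 to 5 injuries, and below 0 for 3xCHI and 5xCHI against 1xCHI, while the median of all features stays within 0.02 of 0.

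After further injuries the differences from sham were smaller by point estimate over all 39 samples, though not among samples 19 to 40 alone. The 1xCHI, 3xCHI and 5xCHI values combine time points, while 2xCHI and 4xCHI were sampled only at 24 h. At 24 h the 1xCHI median was 0.30. The median log2 fold change of the members was 0.23, 0.18, 0.16 and 0.26 for 2xCHI, 3xCHI, 4xCHI and 5xCHI in turn, with 81, 78, 83 and 80 of 83 above 0. edgeR called 0 members in each, as did DESeq2. At an unadjusted p under 0.05 and higher there were 2 after 2xCHI against 2.33% of all features, 3 after 3xCHI against 2.26% and 1 after 4xCHI against 0.663%, counts close to that background. The first was 12, against 3.56%, without 2xCHI sample 19 and 0 without 2xCHI sample 21 or 29 or sham sample 20. With any 1 sample left out the 3xCHI count lay between 0 and 7 and the 4xCHI count between 0 and 3. With all samples they were Rps29 (0.49 ± 0.22) and Rpl38 (0.46 ± 0.23) after 2xCHI, Rps3a2 (0.60 ± 0.26), Rpl41 (0.34 ± 0.15) and Rpl6l (0.52 ± 0.25) after 3xCHI, and Rpl22l1 (0.29 ± 0.14) after 4xCHI, all on the log2 scale. DESeq2 gave 2, 5 and 1 at an unadjusted p under 0.05.

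All 2xCHI and 4xCHI samples have numbers from 19 on. Among samples 19 to 40 the members' median against sham was 0.01 after 1xCHI and 0.23, 0.06, 0.16 and 0.11 after 2xCHI, 3xCHI, 4xCHI and 5xCHI, so that 1xCHI was the lowest. In that range 19 of 83 members were higher at an unadjusted p under 0.05 after 2xCHI (5.01% of all features) and 4 after 4xCHI (2.54%), and edgeR called 0. Among samples 1 to 18, with 1 sham sample, the medians were 0.60 after 1xCHI, 0.26 after 3xCHI and 0.37 after 5xCHI.

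After 5xCHI 27 of 83 members were higher at an unadjusted p under 0.05, against 7.51% of all features, with 14 of the large subunit, 1 of the stalk, 9 of the small subunit and 3 paralogs. edgeR called 0 after adjustment (smallest adjusted p 0.374) and DESeq2 called 0, with 29 at an unadjusted p under 0.05. Rps28 had a lowest, median and highest value of 53.0, 62.5 and 110 CPM after 5xCHI, against 32.1 to 60 CPM in sham, and differed by 0.50 ± 0.18 (edgeR, adjusted p = 0.374). Rpl41 had 123 to 160 CPM in sham and 150, 189 and 283 CPM after 5xCHI, a log2 fold change of 0.40 ± 0.15 (edgeR, adjusted p = 0.374). In both genes the lower end of 5xCHI overlapped the sham range. Rps21 at 0.46 ± 0.18, Rps29 at 0.45 ± 0.17 and Rps15a at 0.22 ± 0.08 followed, all components of the small subunit. Some glial markers were higher by point estimate in the same comparison, 4 of 7 microglia markers (median 0.34) and 3 of 7 astrocyte markers (median 0.18) at an unadjusted p under 0.05, and so were both choroid plexus markers tested. C1qa of microglia differed by 1.00 ± 0.31, Gfap of astrocytes by 2.03 ± 0.62 and Ttr of the choroid plexus by 5.09 ± 1.57 (edgeR, adjusted p = 0.360 for each). Of the 5xCHI samples only 12, 31 and 32 held more than 39.2 CPM of summed choroid plexus markers. The 8 neuron markers had a median of -0.12. edgeR called 0 of these markers after 5xCHI, and their part in the members' values was not tested.

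The count after 5xCHI moved with single libraries. It was 12 without 5xCHI sample 11 and 17 without 5xCHI sample 31. It was 10, 14, 15 and 16 without sham samples 35, 20, 6 and 39, and 42 without 5xCHI sample 33 or 34. In sample 11 the members took 1.73% of counts where the other 9 5xCHI samples held 0.910% to 1.33%, and without it the median log2 fold change was 0.18. Sample 11 and 5xCHI sample 10, the next highest at 1.33%, also stood apart in cell type markers. Their summed levels were 7390 and 6690 CPM for 7 astrocyte markers, where the other 8 5xCHI samples held 3490 to 4980, and 787 and 639 CPM for 7 microglia markers, where the others held 280 to 368. They were 8740 and 7750 CPM for 6 oligodendrocyte markers and 6060 and 6470 CPM for 8 neuron markers, where the others held 3970 to 6590 and 8080 to 9620. The part of these markers in the members' values was not tested.

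By time, the first injury gave its highest counts at 30 min over all 39 samples. At an unadjusted p under 0.05, 70 of 83 members were higher 30 min after 1xCHI (13.0% of all features), 26 at 4 h (6.96%) and 12 at 24 h (3.55%), with medians of 0.52, 0.36 and 0.30 on the log2 scale. At 30 min Rpl38 differed from sham by 0.88 ± 0.23 and Rps29 by 0.80 ± 0.23 (edgeR, adjusted p = 0.167 for both). No member was called at any of these times by edgeR or by DESeq2, which had 70, 27 and 13 at an unadjusted p under 0.05. The 70 became 39 with the sample range as covariate (12.7% of all features in either direction), 22 with the length and GC trend removed (15.6%), 6 with 1 surrogate variable (7.13%) and 0 among samples 19 to 40, which hold 1 sample of this group (3.26%). Each of these groups held 3 or 4 samples from both number ranges, and 1 library decided the call. At 30 min and 4 h samples 27 and 36 are the only ones from the higher numbers, so that without them the injured samples all come from the lower numbers, where 3 of 4 sham samples do not, and injury and number range cannot be told apart in the calls that follow. Without 1xCHI sample 27 the 30 min comparison called 68 members (median 0.70), all higher, where 13.0% of all features were called higher (3601 in either direction), with Rpl38 at 1.14 ± 0.24 (edgeR, adjusted p = 0.00668), while without sample 13 or 14 only 13 or 34 had an unadjusted p under 0.05. Without sample 36 the 4 h comparison called 13 (median 0.54), all higher, where 1.92% of all features were (578 in either direction), with Rpl22l1 at 0.58 ± 0.14 (edgeR, adjusted p = 0.0280). Without sample 15 or 16 it had 2 or 4 at an unadjusted p under 0.05, and without sham sample 20 or 35 it had 17 or 16.

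At 24 h the 12 members became 0, 2 or 30 without 1xCHI sample 17, 18 or 26, and 7, 3 or 6 without sham sample 6, 20 or 35. Leaving out samples of other groups moved it too, to 22 without 5xCHI sample 11 and 19 without 1xCHI sample 27.

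Time since the last injury was also tested with 1xCHI, 3xCHI and 5xCHI together, as differences of 30 min and 4 h from 24 h. In that test 0 of 83 members had an unadjusted p under 0.05, where 6.23% of all features did, and edgeR and DESeq2 called 0 members, while edgeR called 20 features in all.

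For the third and the fifth injury the state before it was the 24 h sample of 2xCHI or 4xCHI. The third injury gave medians of 0.02 at 30 min, -0.03 at 4 h and -0.15 at 24 h, and 0 of 83 members with an unadjusted p under 0.05 at each time, against 1.88%, 2.0% and 4.57% of all features in either direction. The 4 h group held 2 samples here, both from numbers 1 to 18, while all 2xCHI samples have numbers from 19 on, so that the third injury at 4 h and the number range cannot be told apart. At 30 min 2 of 3 samples and at 24 h 1 of 4 came from the lower numbers. Among samples 19 to 40 the median was -0.04 at 30 min, with 1 sample, and -0.22 at 24 h, where 14 members were lower at an unadjusted p under 0.05 against 7.67% of all features (edgeR, 0 called). Single libraries turned the direction at 30 min, to -0.04 and -0.08 without 3xCHI sample 4 or 2xCHI sample 19, and at 4 h, to 0.06 and 0.08 without 3xCHI sample 1 or 2xCHI sample 21. At 24 h the median was -0.25 to -0.06 with 1 sample left out. The fifth injury gave medians of 0.11, 0.08 and 0.12, with 0, 1 and 0 members against 6.36%, 5.33% and 6.44%. The 1 was Rpl5 at 4 h, lower by point estimate than 4xCHI at -0.30 ± 0.14 (edgeR, adjusted p = 0.929), while 69 of 83 members were above 0. It had 77.1, 82.6 and 67.6 CPM in the 3 samples 4 h after 5xCHI and 79.4, 95.9 and 104 CPM in 4xCHI, so that the ranges overlapped. All 4xCHI samples have numbers from 19 on, and in that range the medians for the fifth injury were 0.25 and -0.08 with 1 sample each at 30 min and 4 h, and -0.21 with 2 samples at 24 h, where 6 members were lower at an unadjusted p under 0.05 against 3.07% (edgeR, 0 called). The direction at 4 h and 24 h thus turned within the range. It also turned at 4 h without 5xCHI sample 10 (-0.03) and at 24 h without 5xCHI sample 11 (-0.13), and at 30 min the median was 0.04 to 0.18 with 1 sample left out. Over all 39 samples edgeR and DESeq2 called 0 members in these 6 comparisons, with 1 at an unadjusted p under 0.05 in DESeq2 (5xCHI, 4 h).

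Injury numbers were also compared without sham, at matched times. In 3xCHI 82 of 83 members were below 1xCHI, with a median of -0.22, and 23 were lower at an unadjusted p under 0.05 where 6.21% of all features were. In 5xCHI 77 of 83 were below 1xCHI, with a median of -0.12, and 4 were lower at an unadjusted p under 0.05 against 8.3%. That count rested on single libraries, as 31 were lower without 5xCHI sample 11 (median -0.20, 10.2% of all features), 21 without 1xCHI sample 27 (12.2%) and 22 without 1xCHI sample 36 (11.5%). It was 11, 9 and 7 without samples 31, 26 and 10, and 3 at the fewest. With all samples edgeR called 0 members in both, and DESeq2 0 with 26 and 4 at an unadjusted p under 0.05, while edgeR called 167 of 15224 features for 5xCHI against 1xCHI. The 4 were Rpl22l1 at -0.23 ± 0.08 (edgeR, adjusted p = 0.152), Rpl15, an early large subunit protein, at -0.17 ± 0.06 (adjusted p = 0.154), the pseudogene Rps4l at -0.50 ± 0.20 (adjusted p = 0.205) and Rpl12 at -0.27 ± 0.12 (adjusted p = 0.237). Rpl22l1 had a median of 48.8 CPM (43.2 to 62.9) after 5xCHI against 60 CPM (47.1 to 69.8) after 1xCHI, and the ranges overlapped. Without 1xCHI sample 27 it was called at -0.28 (edgeR, adjusted p = 0.0430), and without sample 36 at -0.27 (adjusted p = 0.0432) together with Rpl15 at -0.21 (adjusted p = 0.0437), where 640 and 561 features were called in all.

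Markers of other cells also differed between 5xCHI and 1xCHI. At an unadjusted p under 0.05, 6 of 7 microglia markers (median 0.53) and 5 of 7 astrocyte markers (median 0.23) were higher after 5xCHI, where 1229 of 15224 features were. As given above, 5xCHI samples 10 and 11 stood apart in these markers. edgeR called Csf1r (0.55 ± 0.13, adjusted p = 0.0294) and Cx3cr1 (0.41 ± 0.10, 0.0369) of microglia and Ttr of the choroid plexus (4.13 ± 1.02, 0.0385), which rose, and Tubb3 of neurons (-0.35 ± 0.07, 0.0187), which fell. The other neuron markers lay between -0.15 and 0.13, none at an unadjusted p under 0.05. Summed choroid plexus markers were 2460, 1290 and 410 CPM in 5xCHI samples 31, 32 and 12. The other 5xCHI samples held at most 39.2 CPM, and 1xCHI samples 9.20 to 45.1 CPM. The part of these cell type markers in the members' values was not tested.

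Within the sample ranges 5xCHI lay on opposite sides of 1xCHI. Among samples 1 to 18 the median was -0.21, and 15 of 83 members fell after adjustment in edgeR, where 6.56% of all features fell (2205 were called in either direction). Among them were Rpl22l1 (-0.36 ± 0.07, adjusted p = 0.00979), Rpl38 (-0.44 ± 0.10, 0.0156), Rps29 (-0.34 ± 0.08, 0.0199), Rpl36, Rpl39, Rpl37, Rpl26, Rpl23, Rpl15, Rpl13a, Rpl21, Rps25, Rpl35a and Rpl27a. Among samples 19 to 40 the median was 0.16, 79 of 83 members were above 0, and 12 were higher at an unadjusted p under 0.05, against 4.23% of all features, with 0 called by edgeR. In 3xCHI against 1xCHI the median among samples 1 to 18 was -0.33, with 58 of 83 lower at an unadjusted p under 0.05 against 12.1% and 0 called by edgeR, and among samples 19 to 40, which hold no 3xCHI sample at 4 h, it could not be fitted. DESeq2 was not run within the ranges.

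The 23 members of 3xCHI against 1xCHI were sensitive to nearly every 1xCHI library. The count was 2 without 3xCHI sample 1, and 12, 14, 11 and 11 without 3xCHI samples 5, 22, 37 and 38. It was 9, 7, 9, 4, 9 and 12 without 1xCHI samples 13 to 18 in order, and 54 and 56 without samples 27 and 36. With library sizes in place of TMM scaling it was 9.

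Over all 39 samples, in the edgeR fits given above, members were called for sample number and for no comparison of injuries or times. Within the 12 groups of injury and time, 60 of 83 members fell with the number after adjustment and 0 rose, where 20.0% of all features fell (6013 were called in either direction). The median change was -0.12 on the log2 scale for every 10 numbers. DESeq2 called 62. By role, 32 of 43 large subunit genes, all 3 of the stalk, 21 of 31 small subunit genes and 4 of 6 paralogs fell, and Rpl12, Rpl10, Rpl5 and Rps12 had slopes above 0 that did not pass. Rps4l fell by 0.28 ± 0.06 per 10 numbers (edgeR, adjusted p = 0.00210), Rps4x, the X-linked form of a core small subunit protein, by 0.14 ± 0.03 (0.00262) and Rpsa, also known as the laminin receptor, by 0.14 ± 0.03 (0.00290). Rpl4 fell by 0.09 ± 0.02 (0.00309) and Rps9, which helps set decoding accuracy, by 0.17 ± 0.04 (0.00317). The number range and what else differed between these samples cannot be told apart.

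Within the ranges edgeR called 0 members for sample number. Among samples 1 to 18 the samples of a group have numbers at most 2 apart, so that a slope could hardly be estimated there, and the median was -0.16 per 10 numbers. Among samples 19 to 40 the median was -0.05 with 7 at an unadjusted p under 0.05, where 10.7% of all features were. Over all 39 samples the count ranged from 41 without 1xCHI sample 36 to 72 without 5xCHI sample 31, was 21 with a trend in length and GC content removed, and was 0 with 1 surrogate variable. Rps9 had 144 CPM in the sham sample of the lower numbers and 123 to 150 CPM in the other 3 sham samples, which did not differ beyond their spread. After 1xCHI it had 193 to 253 CPM in the lower numbers and 122 to 151 CPM in the higher ones. Those ranges did not overlap, and the same held for Rps29 (142 to 189 against 92.8 to 121 CPM), Rpl38 (92.7 to 139 against 57.3 to 76.7 CPM), Rpl13a (333 to 487 against 206 to 271 CPM) and Rpl14 (161 to 214 against 95.9 to 139 CPM). Rps9 had been picked by its p for sample number. The ranges of some other members overlapped, as in Rpl10 (70.3 to 115 against 77.5 to 110 CPM). How many members or features had ranges apart was not counted.

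The differences from sham were recomputed within each range, a choice made after seeing the data. Among samples 1 to 18 the members' median after 1xCHI was 0.60 with 1 sham sample, and 69 of 83 were higher at an unadjusted p under 0.05 against 8.59% of all features, with 0 called by edgeR. Among samples 19 to 40 the median was 0.01 with 3 sham and 4 1xCHI samples. In the latter 0 members had an unadjusted p under 0.05 by edgeR, Rpl13a was at -0.08 and Rpl14 at -0.02. For 5xCHI against sham the medians were 0.37 and 0.11. The difference between the ranges was also fitted as an interaction. It was chosen after the split within 1xCHI had been seen and its lower range holds 1 sham sample, so its values describe that split and are no independent test of it. For 1xCHI against sham it had a median of 0.58, and 45 of 83 members had an unadjusted p under 0.05 in the direction of the lower numbers against 7.05% of all features. For 3xCHI against 1xCHI it had a median of -0.39, with 21 of 83 against 8.38%, and for 5xCHI against 1xCHI -0.33, with 23 of 83 against 12.0%. edgeR called 0 members in these 3 tests and 5, 0 and 623 features in all. DESeq2 was not run on them. Sham sample 6, the only sham sample of the lower range, held 239 CPM of endothelial and 151 CPM of meningeal markers. The other sham samples held 131 to 144 and 85.9 to 103 CPM. The part of this in the interaction was not tested.

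**Figure D3:**
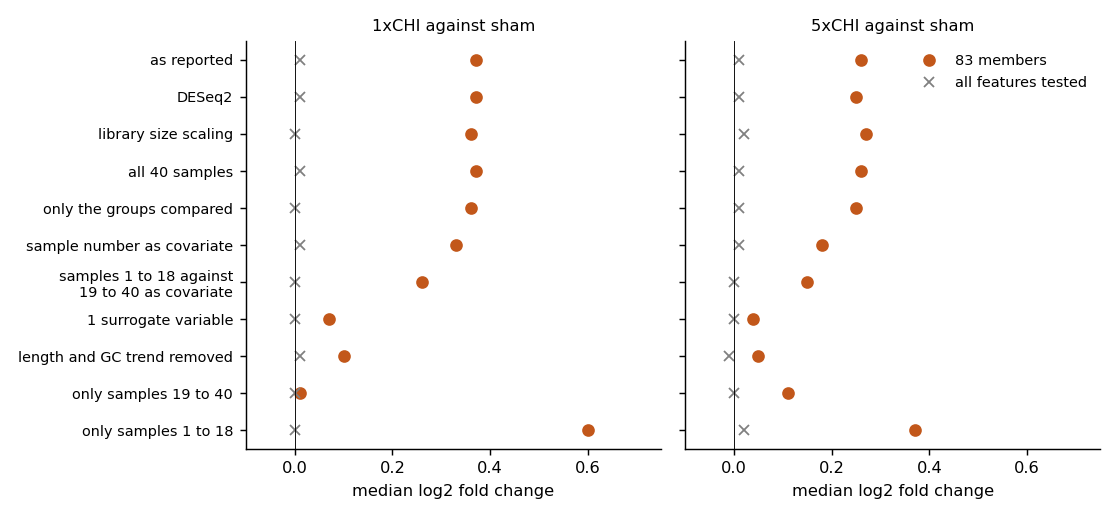
Median log2 fold change (horizontal axis) of the 83 genes (circles) and of all features tested (crosses) under each way of processing (vertical axis), for 1xCHI and for 5xCHI against sham. The members' median after 1xCHI lies at 0.37 in the main fit, at 0.60 with only samples 1 to 18 and at 0.01 with only samples 19 to 40.

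Several other measures of the libraries moved with the share of counts in the ribosomal protein genes. Over 39 samples it had r = -0.94 with the slope of log2 level over transcript length across features that are not members, which means that libraries rich in ribosomal protein counts were also rich in other short transcripts. It had r = 0.731 with the percent of counts from the mitochondrial genome, 0.811 with that of ribosomal protein pseudogenes, -0.493 with sample number and -0.0623 with summed counts. Within samples 1 to 18 and 19 to 40 the values were -0.914 and -0.933 for the length slope and 0.644 and 0.649 for the mitochondrial percent. For sample number they were 0.58 and -0.472, of opposite sign. These are descriptions across libraries that differ in injury.

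The groups differed in these measures as well. The length slope was 0.032 to 0.112 in sham, -0.187 to -0.07 in the 6 1xCHI samples of the lower numbers and 0.003 to 0.13 in the other 4. The mitochondrial percent was 6.09 to 6.89 in sham, 8.19 to 10.3 in those 6 and 6.25 to 8.41 in those 4. With a trend in length and GC content removed from each library the members' median after 1xCHI was 0.10, and 15 of 83 were higher at an unadjusted p under 0.05 against 6.88% of all features (edgeR, 0 called). With 1 surrogate variable it was 0.07, with 16 against 3.03% (0 called). In 5xCHI sample 11 the slope was -0.191, the lowest of all.

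**Figure D4:**
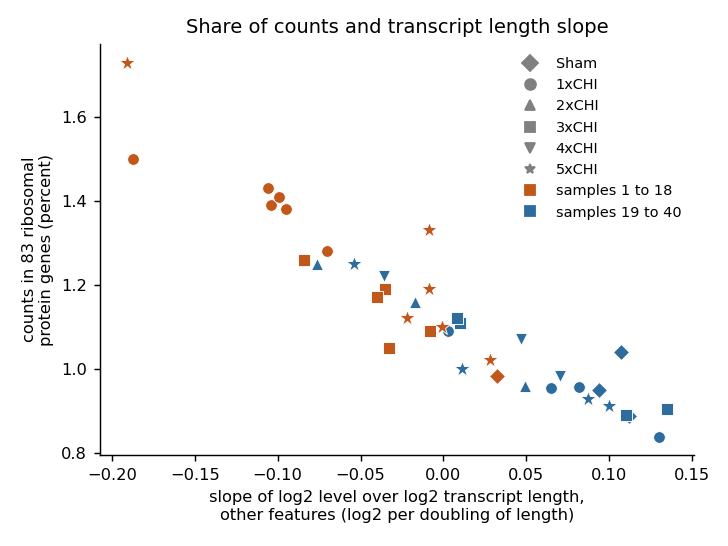
Percent of counts in the 83 genes (vertical axis) against the slope of log2 level over log2 transcript length of the other features in the same library (horizontal axis), 1 point per sample, with shape for injury number and color for sample number range. The share falls as the slope rises (r = -0.94 over 39 samples), from 1.73% at -0.191 in 5xCHI sample 11 to 0.838% at 0.13 in 1xCHI sample 36.

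Among the members themselves the difference from sham also ran with length. The median transcript length was 827 bases in the members and 2858 in all features that passed, and the median GC content 51.8% and 50.3%. For 1xCHI the log2 fold change had r = -0.716 with log2 coding length over 80 members, which share libraries. The 26 shortest members (up to 399 bases) had a median of 0.45, the 28 in the middle 0.40 and the 26 longest (from 585 bases) 0.25. For 5xCHI the same medians were 0.34, 0.27 and 0.19 (r = -0.562), whereas for sample number they were -0.11, -0.12 and -0.11 (r = 0.0446). Sham sample 20, low in the shortest members, is part of every difference from sham. After 1xCHI, leaving it out gave 0.54 in Rpl38, 0.50 in Rpl39 and 0.47 in Rps29. Leaving out another sham sample gave 0.67 to 0.75, 0.64 to 0.71 and 0.70 to 0.74. The longer Rpl13a and Rpl14 had 0.49 and 0.52 without it, against 0.40 to 0.43 and 0.33 to 0.40. Rpl35a and Rpl22l1 stayed within the other values. The gradient without this sample was not computed. The part of transcript length in the differences from sham was not tested further than the trend removal above.

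**Figure D5:**
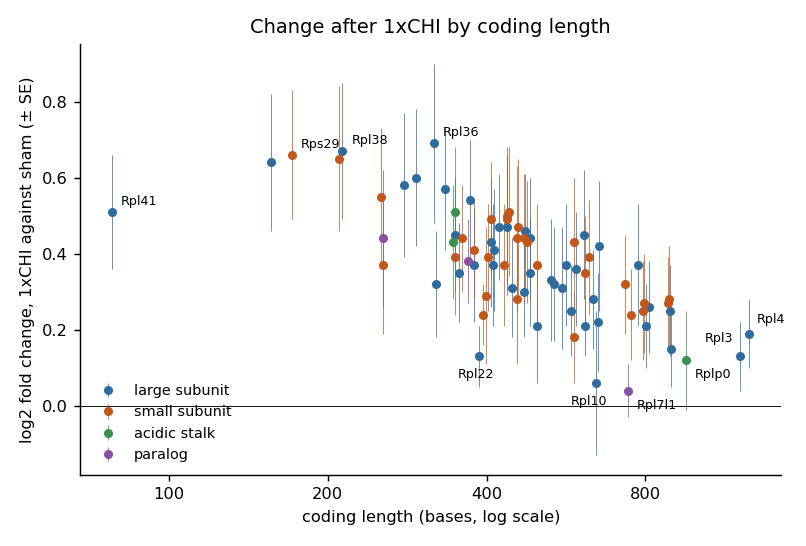
Log2 fold change of 1xCHI against sham with its SE (vertical axis) against coding length in bases (horizontal axis, log scale) for 80 ribosomal protein genes, colored by their place in the ribosome. The 26 shortest genes have a median of 0.45 and the 26 longest 0.25.

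Genes of the same pathway outside the name rule were read from lists. The 4 other ribosome components were close to the members after 1xCHI. Fau, which makes a small subunit protein fused to a ubiquitin-like peptide, differed by 0.43 ± 0.16, the large subunit gene Rpl36al by 0.49, and the scaffold Rack1 by 0.20 on the log2 scale. Of the list 3 of 4 were higher at an unadjusted p under 0.05 (edgeR, 0 called), against 10.9% of all features, and 3 of 4 fell with sample number, against 20.0%. Their summed level was 286 to 323 CPM in sham and 251 to 462 CPM after 1xCHI.

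Translation factors whose mRNAs carry a TOP tract had 7 of 17 higher at an unadjusted p under 0.05 after 1xCHI, with a median of 0.15, and 10 of 17 fell with sample number, where 10.9% and 20.0% of all features did. Ribosome biogenesis genes had 5 of 27 higher and 1 lower (median 0.04), and genes of mTORC1 and TOP control 2 of 14 higher and 2 lower (median -0.04), both nearer to that background. edgeR called 0 in each of these lists after 1xCHI. With sample number 3 rose and 2 fell in each of the last pair of lists. In 5xCHI against 1xCHI, where 167 of 15224 features were called, 2 of the 14 genes of mTORC1 and TOP control were. Mlst8, a subunit of mTORC1, rose by 0.21 (edgeR, adjusted p = 0.0248) and Rheb, the GTPase that activates it, fell by 0.29 (adjusted p = 0.0177).

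Markers of other cells were read beside the members, and their part in the differences was not tested. After 1xCHI the median log2 fold change was -0.01 over 8 neuron markers, -0.06 over 7 astrocyte and 7 microglia markers each, 0.01 over 6 oligodendrocyte and -0.16 over 6 endothelial markers. It was 0.24 over 6 meningeal and 0.18 over 5 blood markers, and 0.57 over the 2 of 5 choroid plexus markers that passed the count rule. No member of any of these lists was called by edgeR, and 1 neuron and 1 astrocyte marker were lower at an unadjusted p under 0.05. Summed levels were 8430 to 8760 CPM in sham and 7210 to 9310 CPM after 1xCHI for neurons, 4000 to 4920 and 2770 to 4980 for astrocytes, 287 to 322 and 231 to 336 for microglia, 4620 to 6930 and 4890 to 7450 for oligodendrocytes, and 131 to 239 and 107 to 178 for endothelium. For meninges they were 85.9 to 151 and 65.3 to 394, for blood 170 to 270 and 84.9 to 484, and for choroid plexus 6.62 to 22.9 and 9.20 to 45.1. The 6 1xCHI samples of the lower numbers held 2770 to 4200 CPM of astrocyte markers and the other 4 held 4090 to 4980. Choroid plexus markers reached 148 CPM in 2xCHI sample 29, 861 CPM in 4xCHI sample 24, and 410, 2460 and 1290 CPM in 5xCHI samples 12, 31 and 32. No marker was at 0 throughout a group.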

How the data were processed

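RNA from mouse left somatomotor cortex was sequenced in bulk, and the deposited file held estimated counts per gene in 40 samples, made for the authors by a sequencing provider. The submitters' processing notes name the build mm10, and no source used here names the aligner or the counting tool, though the column names end as those of salmon's gene-level output do. Values that were not whole were rounded before testing. Features with 10 or more counts in at least 35 of 39 samples (15224) were tested with edgeR 4.0.16 (TMM scaling, quasi-likelihood test, R 4.3.3), and p-values were adjusted by Benjamini-Hochberg over all of them. A member was called at an adjusted p under 0.05. CPM of single members are counts per 1000000 after TMM scaling, and summed marker levels and shares are relative to each sample's summed counts without it. Injury numbers were fitted with time points combined, and time points and sample number in a fit of 12 groups. Paralog ratios (counts plus 1) were compared by exact permutation tests.

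DESeq2 1.42.0, 1 surrogate variable (sva 3.50.0), other scalings and filters, covariates and leaving out each sample were tried as alternatives. Fits within the sample ranges and their interaction were added after seeing the data. The members and gene lists were chosen with earlier results of these data known. Named were members the study names, the paralogs, the 5 with the smallest p in 4 comparisons, the 15 called with the smallest adjusted p, the 5 highest and the 5 lowest per kilobase, those against the common direction and the 3 of largest spread; other genes named in the text were chosen after their values were seen. Replicates of a group were compared in 46 pairs, and none differed by less than sampling noise. The scripts were tested on simulated data. Depths were 15926014 to 27859547 counts per sample. Some items are not reported here. Sequences came from RefSeq (GRCm38.p6).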

Additional observations from a re-analysis of the deposited data

Results flagged for a closer look

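A sample stood apart from the rest of its group in 6 of the values examined. Over 47 groups of values, chance flags about 1 in 20. In sham, sample 35 had a log2 ratio of Rpl22l1 to Rpl22 of -0.68 where the other 3 held -0.93 to -0.91, and sample 20 had 52.2 CPM of Rps29 where they held 96.1 to 103. In 5xCHI sample 11 was apart in the share of counts in the 83 genes, at 1.73% against 0.910% to 1.33% in the other 9. In the same library Rpl39 was at 79.3 CPM against 38.2 to 55.9, Rpl13a at 428 against 230 to 326, and Rpl14 at 228 against 109 to 168. These 4 values come from 1 library and are not independent of each other.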

How the results depend on the processing

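No paired analysis was possible because the sample numbers are unique and no number is shared between groups. Of the values recomputed under each alternative for the comparisons as a whole, 1411 stayed within the spread or within 1.5 times the count and 72 moved, and of the values of named genes 592 kept their direction and their side of the threshold, 14 were no longer past it and 3 reversed. The cause was not tested for any of them. With only samples 1 to 18 sham holds 1 sample, and with only samples 19 to 40 1xCHI holds 1 at 30 min and 1 at 4 h, and such a lone sample is assumed to vary like the other groups. Members called for 5xCHI against 1xCHI went from 0 to 2 with 1 surrogate variable and to 15 with only samples 1 to 18. For sample number they went from 60 to 0 with 1 surrogate variable, 21 with a trend in length and GC content removed, and 0 with only samples 19 to 40 or only samples 1 to 18, where the numbers of a group are at most 2 apart. Leaving out 1 sample gave 41 to 72 called for sample number, 0 to 68 for 1xCHI at 30 min, 0 to 13 at 4 h and 0 to 2 for 5xCHI against 1xCHI.

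The counts in this paragraph stand without the share of all features, which also moved with the processing, so they do not describe the members alone. After 1xCHI the share that was higher went from 10.9% to 3.03% with 1 surrogate variable and 6.88% with the trend removed. Members at an unadjusted p under 0.05 after 1xCHI went from 67 to 30 with the sample range as covariate, 16 with 1 surrogate variable, 15 with the trend removed and 0 with only samples 19 to 40. After 5xCHI they went from 27 to 13 with sample number and 7 with the sample range as covariate, 5 with 1 surrogate variable, 6 with the trend removed, 3 with only samples 19 to 40 and 15 with only samples 1 to 18. At 30 min after 1xCHI, in the same order from the sample range on, they went from 70 to 39, 6, 22 and 0. At 4 h they went from 26 to 9, 7, 8 and 3, and to 48 with only samples 1 to 18. For 3xCHI against 1xCHI they went from 23 to 9 with library size scaling, 35 with no filter, 72 with sample number and 37 with the sample range as covariate, and 58 with only samples 1 to 18. Leaving out 1 sample gave 39 to 73 after 1xCHI, 10 to 42 after 5xCHI, 13 to 76 at 30 min, 2 to 67 at 4 h and 2 to 56 for 3xCHI against 1xCHI.

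The members' median after 1xCHI moved from 0.37 to 0.07 with 1 surrogate variable, 0.10 with the trend removed and 0.01 with only samples 19 to 40. With the trend removed it was 0.03 after 2xCHI, -0.01 after 3xCHI and 0.05 after 5xCHI, and with 1 surrogate variable 0.02 after 3xCHI and 0.04 after 5xCHI. With sample number as covariate it was 0.04 after 3xCHI. Leaving out 1 sample gave medians of 0.32 to 0.42 after 1xCHI, 0.14 to 0.32 after 2xCHI, 0.14 to 0.21 after 3xCHI, 0.09 to 0.23 after 4xCHI and 0.18 to 0.29 after 5xCHI. Reversed were Rpl13a (-0.08) and Rpl14 (-0.02) after 1xCHI with only samples 19 to 40, and Rps9 (0.00) for sample number with 1 surrogate variable. With 4 sham samples, 1 of them among numbers 1 to 18, differences from sham rest on few libraries.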
